A study of Mus musculus with 12 samples.

Results

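The 33 genes described here encode chemokine ligands: 18 of the CC class, 13 of the CXC class, Cx3cl1 and Xcl1. They were the rows of the deposited gene tables whose symbol was on a list of chemokine ligand names that leaves out the platelet chemokines, so no measured value chose them. They were 33 of 55487 genes in the tables, and 31 of them were among the 17909 genes with enough counts to be tested. Cxcl11, with 8 counts over all 12 libraries and annotated in C57BL/6 as a polymorphic pseudogene, and Ccl20, with 92 counts, did not pass the filter. Ccl19 and Ccl21a each had a further row of the same symbol with a summed count of 0, and the row with counts was used.

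The libraries came from whole lungs of wild-type C57BL/6J male mice aged 10 weeks, all of which had received bleomycin, a drug that injures the alveolar epithelium and leads to fibrosis, through the oropharynx at 0.0125 U per mouse (about 0.5 U/kg). A first group of 4 mice was sampled on day 14, before any injection. The other groups were sampled on day 21, after retro-orbital intravenous injections from day 14 to day 18: 4 mice received vehicle (phosphate-buffered saline) and 4 received 5 daily doses of 2 mg of nanoparticles (NP) made of PLG, a lactide and glycolide copolymer, and coated with the surfactant PEMA. Lungs without bleomycin were not analysed here, so every change below is a change within injured lungs. Each library is labelled as a separate mouse, and its polyA RNA came from a homogenate of all 5 lobes, so that fewer cells of a type and less RNA per cell cannot be told apart.

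Chemokines are small secreted proteins that bind to matrix and to G-protein-coupled receptors on leukocytes and set the direction in which those cells move. Inflammatory members are made on demand by macrophages, epithelium and stroma and recruit monocytes, neutrophils or activated T cells, while homeostatic members place lymphocytes and progenitors in resting tissue. Cx3cl1 and Cxcl16 are unusual in being made as membrane-bound proteins that proteases such as ADAM10 and ADAM17 can release. In injured lung, recruitment of CCR2-bearing monocytes by Ccl2 and its relatives is a well-known step towards fibrosis.

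Total counts per library ran from 24138582 to 42714693. NP replicate 3 stood apart from the other 11 libraries on the second principal component of all tested genes (49.3, against -12.2 to 5.31). In that library 8 neutrophil markers summed to 1161 CPM (counts scaled to library size), against 104 to 108 in the other NP libraries, 60.0 to 140 in the vehicle libraries and 42.7 to 90.3 on day 14. In NP replicate 1, 8 interferon target genes summed to 772 CPM, against 416 to 537 in the other 11 libraries. Day 14 replicate 2 had 1821 CPM in 10 immediate early genes, against 492 to 955 in the others. Several ligand and receptor differences are given with and without these libraries. Counts over the lists of other genes include all libraries.

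The 250 bases before the annotated start (RefSeq, GRCm38.p6) are printed for 6 ligands. They were picked from those that fell from day 14 in both comparisons (Cxcl10, Cxcl9, Ccl12, Ccl8, Ccl9) and from those with the lowest unadjusted p between NP and vehicle (Cxcl3). The RefSeq table held a promoter for 23 of the 33 ligands. Capitals mark matches, on either strand, to the NF-kB consensus or to the interferon-stimulated response element (GAAA, any 2 bases, GAAA), and overlapping matches run together. The interferon-gamma activated element TTCNNNGAA was searched as well. Ccl6 and Cxcl13 also fell in both comparisons and had a promoter in the RefSeq table. Their windows held no match to any of these motifs and are not printed.
Cxcl10 (chr5:92348890-92349139, minus strand): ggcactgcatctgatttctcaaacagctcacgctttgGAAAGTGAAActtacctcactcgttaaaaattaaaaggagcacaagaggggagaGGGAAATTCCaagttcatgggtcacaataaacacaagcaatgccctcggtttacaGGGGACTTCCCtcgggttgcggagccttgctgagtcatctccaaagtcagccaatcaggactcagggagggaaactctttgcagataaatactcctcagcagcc
Cxcl9 (chr5:92328080-92328329, minus strand): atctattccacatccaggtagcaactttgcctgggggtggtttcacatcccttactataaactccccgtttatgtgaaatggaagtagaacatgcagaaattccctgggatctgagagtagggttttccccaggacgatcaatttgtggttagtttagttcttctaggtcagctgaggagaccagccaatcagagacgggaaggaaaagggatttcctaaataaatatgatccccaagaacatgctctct
Ccl12 (chr11:82101595-82101844, plus strand): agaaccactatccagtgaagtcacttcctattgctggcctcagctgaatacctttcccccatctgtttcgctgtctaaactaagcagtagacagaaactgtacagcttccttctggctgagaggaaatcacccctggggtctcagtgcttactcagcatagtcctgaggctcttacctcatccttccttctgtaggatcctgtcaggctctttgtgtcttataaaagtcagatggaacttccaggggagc
Ccl8 (chr11:82114935-82115184, plus strand): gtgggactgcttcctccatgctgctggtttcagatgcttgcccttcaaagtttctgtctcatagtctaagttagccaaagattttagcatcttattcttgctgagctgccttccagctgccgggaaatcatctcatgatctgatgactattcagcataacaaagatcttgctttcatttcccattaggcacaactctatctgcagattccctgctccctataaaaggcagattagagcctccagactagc
Ccl9 (chr11:83578637-83578886, minus strand): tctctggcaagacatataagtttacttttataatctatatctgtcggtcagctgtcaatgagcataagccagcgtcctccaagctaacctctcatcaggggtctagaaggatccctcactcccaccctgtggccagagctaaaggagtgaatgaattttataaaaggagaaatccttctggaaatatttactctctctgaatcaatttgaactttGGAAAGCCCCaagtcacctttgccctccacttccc
Cxcl3 (chr5:90785851-90786100, plus strand): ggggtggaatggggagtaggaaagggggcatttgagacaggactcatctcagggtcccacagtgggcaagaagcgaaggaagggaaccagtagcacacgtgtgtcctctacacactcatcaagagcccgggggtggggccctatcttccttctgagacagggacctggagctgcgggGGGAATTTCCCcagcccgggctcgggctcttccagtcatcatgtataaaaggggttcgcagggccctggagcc
The NF-kB consensus was found in 6 of the 23 ligand promoters (Ccl9, Ccl20, Cxcl1, Cxcl2, Cxcl3 and Cxcl10) and in 7.25% of the 32851 promoters of the table. Cxcl10 carried it from -159 to -150 and again, as overlapping matches, from -104 to -94. The interferon-stimulated response element was found in 3 ligand promoters (Cxcl10, Ccl19 and Cxcl14) and in 2.98% of all promoters, and Cxcl10 carried it from -213 to -204. The match of Ccl19, from -208 to -199, lies inside the gene as annotated in GENCODE, which covers 212 bases of its window. TTCNNNGAA was found in 2 ligand promoters (Ccl17 and Cxcl14) and in 7.02% of all. A match describes letters only, and the absence of one in Cxcl9, Ccl12 or Ccl8 says only that these letters are not in this window.

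The ligands spanned a wide range of abundance, given here in TPM, which corrects for gene length and so allows genes to be compared with each other. Summed over the 33 ligands, the level was 2256 to 2875 TPM per library. The 6 most abundant ligands held 86.2% of that sum, 13 ligands averaged 10 TPM or more, 14 averaged 1 to 10 TPM and 6 averaged under 1 TPM. Cxcl15 (lungkine), a CXC chemokine made by lung epithelium in mice, was the highest at a mean of 1143 TPM, followed by the macrophage chemokine Ccl6 at 501 TPM. Ccl21a, made by lymphatic endothelium and guiding CCR7-bearing cells, averaged 297 TPM. Cxcl12, the stromal ligand of CXCR4, averaged 141 TPM, the epithelial Cxcl14 118 TPM and Cxcl16, the ligand of CXCR6, 74.3 TPM. Ccl5 (73.5 TPM), Cxcl17 (67.9 TPM) and Ccl9 (54.2 TPM) came next, and the ranges of Cxcl16, Ccl5, Cxcl17 and Ccl9 over libraries overlapped. The well-known inflammatory ligands stood far lower, with means of 4.57 TPM for Ccl2, 7.82 TPM for Cxcl10 and 1.10 TPM for Cxcl2.

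**Figure D1:**
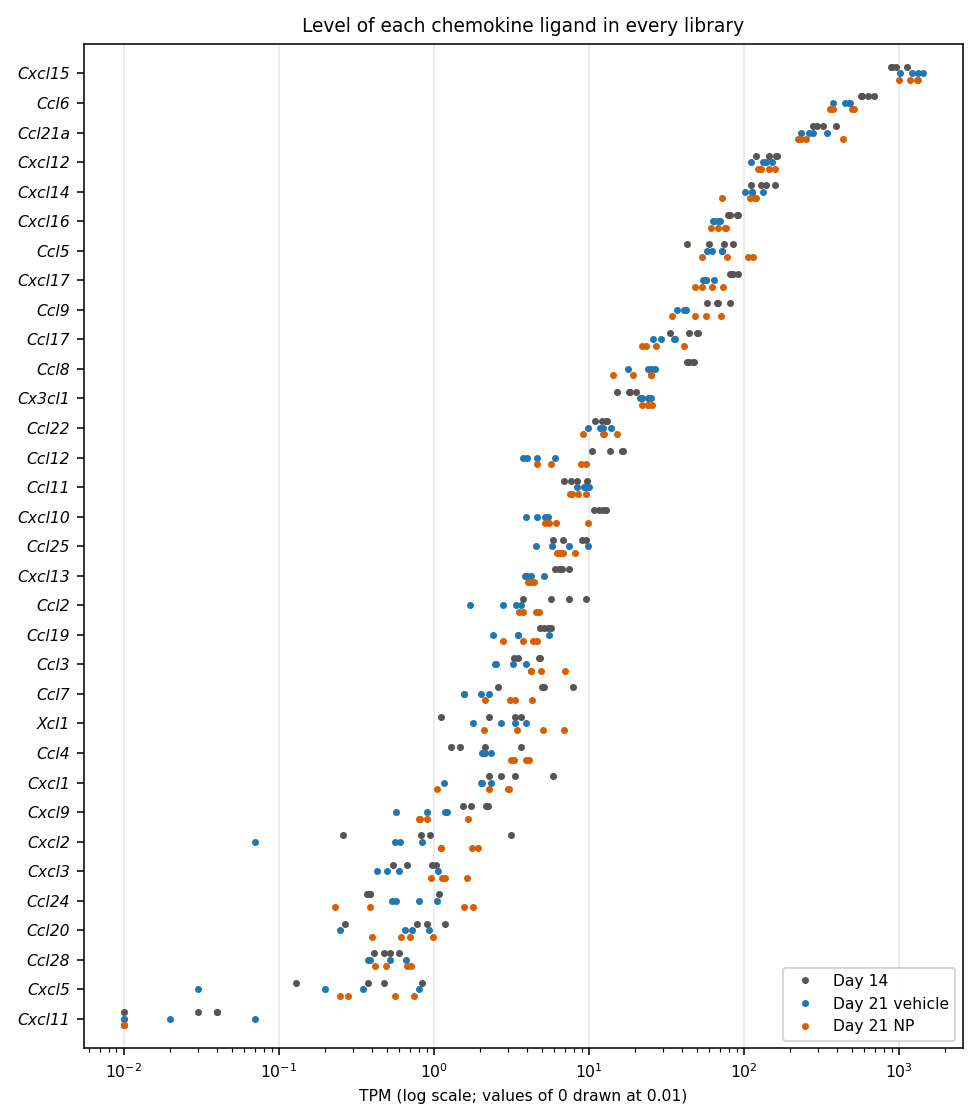
Level of each of the 33 ligands in TPM on a logarithmic axis, 1 point per library, coloured by group and ordered by the mean over 12 libraries. Cxcl15 is the highest at a mean of 1143 TPM, and Cxcl11 the lowest at a mean of 0.0167 TPM.

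Between day 14 and day 21 under vehicle, 11 of 31 tested ligands fell and 1 rose, at a Benjamini-Hochberg adjusted p under 0.05 in edgeR's quasi-likelihood test. In the same comparison 10.3% of all tested genes were called, 6.51% lower and 3.79% higher. The ligands that fell were the monocyte attractants Ccl2, Ccl7, Ccl8 and Ccl12, the macrophage chemokines Ccl6 and Ccl9, the interferon-induced Cxcl9 and Cxcl10, the B cell attractant Cxcl13, and Cxcl16 and Cxcl17. Cx3cl1 rose. The median log2 fold change of the 31 ligands was -0.38, beside 0.0031 over all tested genes, and 12 ligands had all 4 vehicle libraries below all 4 day 14 libraries, as did 10.7% of all tested genes.

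Between day 14 and day 21 under NP, 10 ligands fell and 1 rose, where 14.7% of all tested genes were called, 8.56% lower and 6.16% higher. The median of the ligands was -0.20, beside 0.0062 over all genes, and 9 ligands had all NP libraries below all day 14 libraries, as did 10.6% of all tested genes. Ccl2 and Ccl7 were called under vehicle and not under NP, and Ccl17 was called under NP and not under vehicle. Both comparisons use the same 4 day 14 libraries, so their values are set side by side for each ligand and are not independent. The comparison that tests the difference between the treatments, NP against vehicle, called none of the 31 ligands and is given further on.

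**Figure D2:**
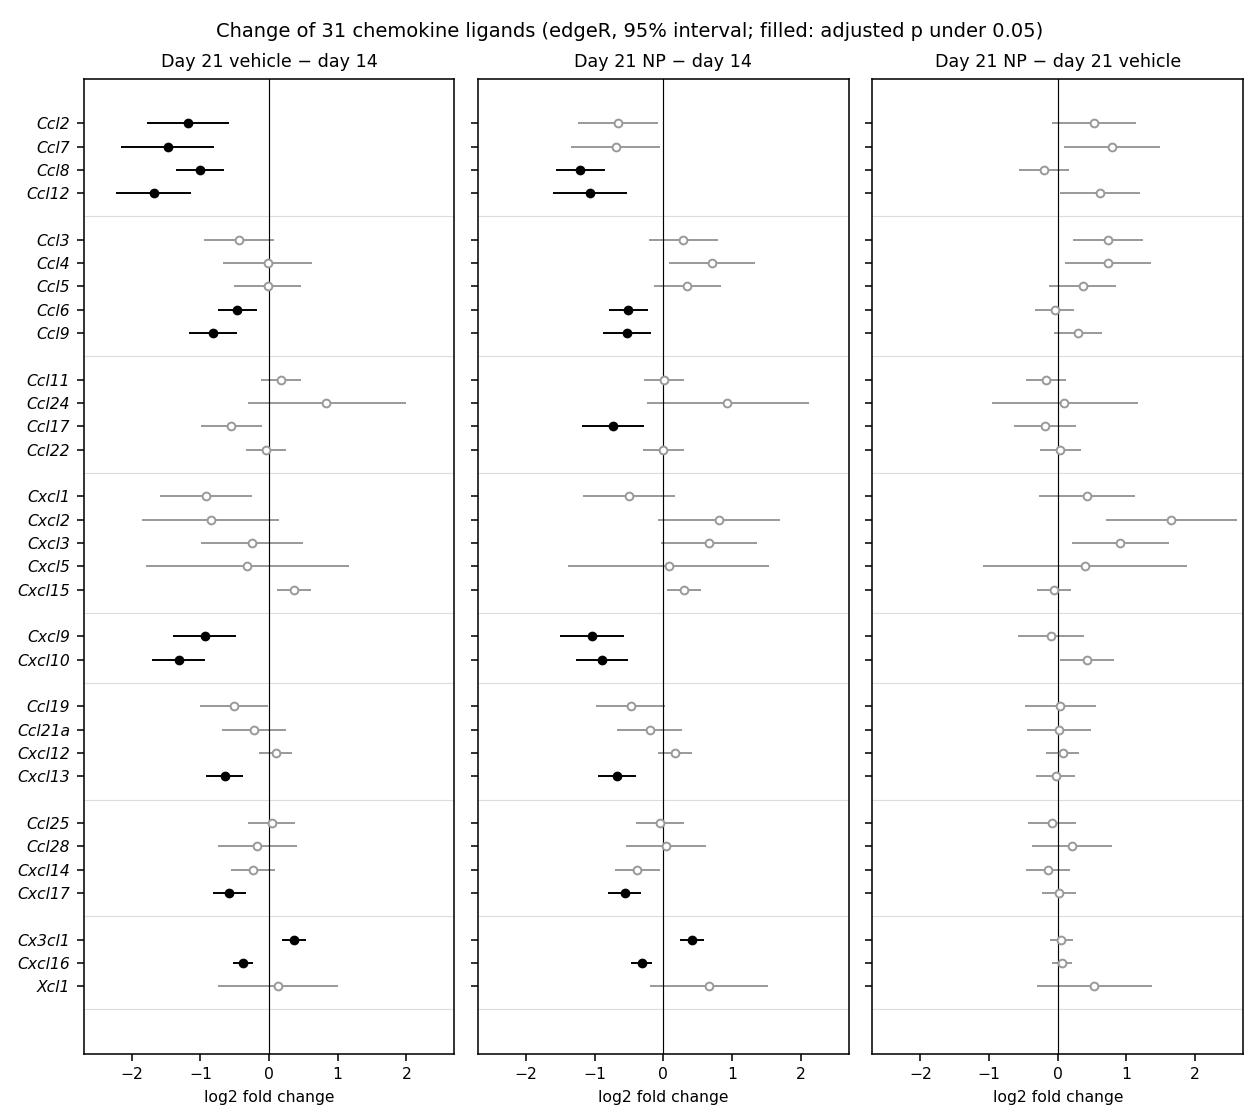
The log2 fold change of each of the 31 tested ligands with its 95% confidence interval in the 3 comparisons, grouped by role from top to bottom. Filled points passed an adjusted p of 0.05 in edgeR: 12 in the vehicle comparison, 11 in the NP comparison and 0 between NP and vehicle.

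All 4 monocyte attractants, which act on CCR2 and related receptors and lie in 1 cluster, fell under vehicle, and 2 of the 4 fell under NP. Ccl12 read 3.14, 1.89, 2.87 and 2.32 CPM in day 14 replicates 1 to 4, 0.67, 0.663, 0.797 and 1.06 CPM under vehicle and 0.964, 0.789, 1.68 and 1.45 CPM under NP. Every day 21 library was below every day 14 library. Ccl12 fell by 1.67 ± 0.26 (log2 ± SE, adjusted p = 0.0027, edgeR) under vehicle, the largest fall among the ligands there, and by 1.07 ± 0.25 (adjusted p = 0.0132) under NP. Ccl8, which in mice acts through CCR8, read 8.24, 7.35, 7.56 and 6.66 CPM on day 14, 2.85, 3.86, 3.85 and 4.29 CPM under vehicle and 3.86, 2.95, 2.3 and 3.77 CPM under NP. Its groups did not overlap with day 14 in either treatment. Ccl8 fell by 1.00 ± 0.16 (adjusted p = 0.0032, edgeR) under vehicle and by 1.21 ± 0.16 (adjusted p = 0.00088) under NP, where it was the ligand with the largest fall.

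Ccl2 and Ccl7 moved less evenly. Ccl7 read 0.958, 1.81, 2.83 and 1.77 CPM on day 14, 0.705, 0.542, 0.55 and 0.821 CPM under vehicle and 1.07, 0.748, 1.52 and 1.16 CPM under NP. Vehicle lay wholly below day 14, while 3 of 4 NP libraries lay above the lowest day 14 library. The fall of Ccl7 was 1.47 ± 0.31 (adjusted p = 0.0114, edgeR) under vehicle, and the difference under NP was -0.69 ± 0.30 (adjusted p = 0.137). Ccl2, the main attractant of CCR2-bearing monocytes, read 1.44, 2.79, 3.58 and 2.06 CPM on day 14, 0.67, 1.3, 1.04 and 1.28 CPM under vehicle and 1.72, 1.37, 1.8 and 1.3 CPM under NP. Ccl2 fell by 1.18 ± 0.28 (adjusted p = 0.0178, edgeR) under vehicle, and under NP the difference was -0.65 ± 0.27 (adjusted p = 0.119). Omitting replicate 3 of day 14, or replicate 1 or 3 of vehicle, ended the vehicle call of Ccl2 (adjusted p = 0.0533 to 0.0666), and without day 14 replicate 1 both Ccl2 (-0.86, adjusted p = 0.0469) and Ccl7 (-0.93, adjusted p = 0.0453) were called under NP.

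Markers of interstitial macrophages, a source of such ligands, moved in the same direction. Their 7 genes, none at 0, summed to 542 to 661 CPM on day 14, 350 to 430 CPM under vehicle and 350 to 573 CPM under NP. Of the 7, 4 fell under vehicle, the complement genes C1qa, C1qb and C1qc among them, beside 6.51% of all tested genes. Under NP 2 fell (C1qa and C1qb), beside 8.56% of all tested genes. The part of these cells in the ligand changes was not tested. Single markers named here and below were picked after their values were seen. Of the 5 classical monocyte markers, Vcan fell in both comparisons, where 6.51% and 8.56% of all tested genes fell. Under NP 2 of the 5 rose, Ly6c2 among them, beside 6.16% of all tested genes. The sum of the 5 was 130 to 188 CPM on day 14, 144 to 179 CPM under vehicle and 172 to 222 CPM under NP.

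Among the 5 other inflammatory CC ligands, Ccl6 and Ccl9 fell in both comparisons, while Ccl3, Ccl4 and Ccl5 passed in neither. Ccl9 read 64.0, 59.3, 71.9 and 52.5 CPM on day 14, 30.2, 34.8, 38.5 and 36.7 CPM under vehicle and 43.5, 40, 57.5 and 30.7 CPM under NP. All vehicle libraries were below day 14, and NP replicate 3 lay inside the day 14 range. The fall of Ccl9 was 0.82 ± 0.16 (adjusted p = 0.0097, edgeR) under vehicle and 0.53 ± 0.16 (adjusted p = 0.0438) under NP. The NP call was lost when any of 9 of the 12 libraries was left out (day 14 replicates 1, 2 and 3, vehicle replicates 2, 3 and 4, NP replicates 1, 2 and 4; adjusted p = 0.0556 to 0.118), and also in limma, with no filter and in a fit of only the 2 groups (adjusted p = 0.0902 to 0.199).

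Ccl6 is the second most abundant ligand and read 437, 329, 389 and 343 CPM on day 14, 223, 264, 293 and 308 CPM under vehicle and 298, 229, 303 and 221 CPM under NP. No day 21 library reached the day 14 range. The fall was 0.46 ± 0.13 (adjusted p = 0.0394, edgeR) under vehicle and 0.51 ± 0.13 (adjusted p = 0.0209) under NP. Omitting day 14 replicate 1 or 3, or any vehicle library but replicate 4, ended the vehicle call of Ccl6 (adjusted p = 0.0698 to 0.118), and omitting either of those day 14 libraries, or NP replicate 2 or 4, ended the NP call (adjusted p = 0.0605 to 0.0651). Testing with no filter on low counts ended both calls of Ccl6 (adjusted p = 0.104 and 0.0526), and limma on either TPM scale ended the vehicle call (adjusted p = 0.0577 and 0.056). Chil3 and 6 other alveolar macrophage markers, cells known to express Ccl6, summed to 670 to 1138 CPM on day 14, 536 to 653 CPM under vehicle and 463 to 1777 CPM under NP, with the highest sum in NP replicate 3. Of these 7 markers only Ear1 was called, and it rose in both comparisons, where 3.79% and 6.16% of all tested genes rose. Under vehicle 5 of the 7 were below 0, and 2 were lower at an unadjusted p under 0.05, beside 15% of all tested genes. Under NP 4 of the 7 were below 0, and 0 were lower at that p, beside 16.5% of all tested genes. Ccl5, a T cell and NK cell product, was 8.05 to 15.4 CPM on day 14, 10.1 to 12.7 CPM under vehicle and 9.42 to 19.2 CPM under NP, and these ranges overlapped.

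The 2 tested ligands of CXCR3, a receptor of activated T and NK cells, fell in both comparisons. Cxcl10 read 6.73, 7.58, 7.01 and 5.90 CPM on day 14, 2.19, 3.01, 2.97 and 2.71 CPM under vehicle and 5.27, 3.41, 3.09 and 2.90 CPM under NP. All day 21 libraries were below day 14, and NP replicate 1 was the closest to it. Cxcl10 fell by 1.32 ± 0.18 (adjusted p = 0.0018, edgeR), the smallest adjusted p among the ligands under vehicle, and by 0.89 ± 0.18 (adjusted p = 0.0058) under NP. Cxcl9 read 3.50, 3.96, 2.76 and 3.04 CPM on day 14, 0.987, 2.14, 2.09 and 1.67 CPM under vehicle and 1.93, 1.45, 1.45 and 1.63 CPM under NP, again with no overlap. Cxcl9 fell by 0.93 ± 0.21 (adjusted p = 0.0155, edgeR) and by 1.03 ± 0.22 (adjusted p = 0.0077). On the log2(TPM + 1) scale the calls of Cxcl9 were lost in both comparisons in limma. Cxcl10 shares 133 of its 2252 exon bases with Art3 on the opposite strand, and whether counting used strand is not given in the sources used here, so reads within the shared bases cannot be told apart.

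The interferon target genes, a list of 8, are given beside these ligands. Under vehicle 4 of the 8 fell, beside 6.51% of all tested genes: Ifit1 (-0.72), Ifit3 (-0.44), Isg15 (-0.67) and Rsad2 (-0.80). Under NP none of the 8 was called (smallest adjusted p = 0.0698, edgeR, and 2 lower at an unadjusted p under 0.05, beside 16.5% of all tested genes lower). Between NP and vehicle none was called either, with 4 higher at an unadjusted p under 0.05, beside 2.41% of all tested genes. These counts include NP replicate 1. It was the highest NP library for Isg15 (21.1 CPM, against 10.9 to 11.4 in the other 3), for Irf7 (53.8 CPM, against 30.0 to 32.4) and for Cxcl10.

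Of the homeostatic ligands, Cxcl13, which draws CXCR5-bearing B cells into follicles, fell in both comparisons. It read 4.55, 3.69, 3.84 and 3.87 CPM on day 14, 2.47, 2.32, 3.05 and 2.37 CPM under vehicle and 2.51, 2.45, 2.42 and 2.61 CPM under NP. The 8 day 21 libraries all lay below the 4 day 14 libraries. The fall of Cxcl13 was 0.65 ± 0.13 (adjusted p = 0.0083, edgeR) under vehicle and 0.68 ± 0.13 (adjusted p = 0.0047) under NP. The 6 B cell markers had 0 calls in both comparisons, with sums of 85.4 to 189 CPM on day 14, 127 to 215 CPM under vehicle and 103 to 276 CPM under NP.

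The other 3 homeostatic ligands passed in neither comparison. Cxcl12 read 276, 344, 378 and 357 CPM on day 14, 362, 390, 292 and 405 CPM under vehicle and 344, 415, 409 and 353 CPM under NP. The 3 groups overlapped, with differences of 0.10 (95% interval -0.15 to 0.34) and 0.17 (-0.08 to 0.41) in CPM, and of -0.14 and -0.07 on the log2(TPM + 1) scale, so the sign of Cxcl12 turned with the unit. Ccl21a read 116, 162, 130 and 116 CPM on day 14, 105, 136, 93.9 and 116 CPM under vehicle and 98.0, 88.7, 177 and 92.4 CPM under NP.

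In Ccl21a, NP replicate 3 was higher than every other library and the other 3 NP libraries were below all of day 14. The difference under NP was -0.20 ± 0.21 (adjusted p = 0.566, edgeR) with all libraries and -0.48 (adjusted p = 0.0278) without NP replicate 3. The same library had the highest sum of 5 lymphatic endothelial markers (426 CPM, against 294 to 339 in the other NP libraries) and of 4 mesothelial markers (173 CPM, against 85.6 to 118). Ccl21a has near-identical copies, and a Ccl21b row averaged 168 TPM, so reads may have been split between them. With all Ccl21 copies summed into 1 row, an alternative chosen after seeing the data, the differences were -0.30 (adjusted p = 0.369) under vehicle and -0.26 (adjusted p = 0.422) under NP. Ccl19, the other CCR7 ligand, was 1.39 to 1.55 CPM on day 14, 0.669 to 1.48 CPM under vehicle and 0.748 to 1.21 CPM under NP, and its differences of -0.51 (adjusted p = 0.166) and -0.47 (adjusted p = 0.186) did not pass.

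Among the mucosal and epithelial ligands Cxcl17, a chemokine of mucosal epithelium, fell in both comparisons. It read 28.3, 28.8, 30.3 and 26.0 CPM on day 14, 17.7, 18.1, 18.7 and 21.3 CPM under vehicle and 17.0, 15.6, 24.1 and 20 CPM under NP. No day 21 library reached the lowest day 14 library. The fall was 0.58 ± 0.11 (adjusted p = 0.0076, edgeR) under vehicle and 0.56 ± 0.11 (adjusted p = 0.0061) under NP. None of 7 airway epithelial markers was called lower in either comparison. Cyp2f2 and Tppp3 rose in both, where 3.79% and 6.16% of all tested genes rose. At an unadjusted p under 0.05, 0 of the 7 were lower under vehicle and 2 under NP, beside 15% and 16.5% of all tested genes. The lowest log2 fold change of the 7 under NP was -0.57. Cxcl14 read 120, 171, 136 and 144 CPM on day 14, 137, 106, 117 and 123 CPM under vehicle and 120, 127, 75.8 and 116 CPM under NP, and its differences of -0.24 (adjusted p = 0.327) and -0.38 (adjusted p = 0.107) did not pass. Ccl25 and Ccl28 differed from day 14 by at most 0.17 in size and overlapped in every group. Ccl20, outside the test, ranged from 0.0825 to 0.452 CPM over all libraries.

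The membrane-bound ligands moved in opposite directions. Cx3cl1 (fractalkine), displayed by endothelium and epithelium and bound by CX3CR1 on monocytes, was the only ligand that rose. It read 32.3, 37.7, 34.1 and 39.7 CPM on day 14, 48.9, 41.6, 47.2 and 47.2 CPM under vehicle and 51.4, 47.4, 42.2 and 50.8 CPM under NP, so that every day 21 library was above every day 14 library. The rise of Cx3cl1 was 0.36 ± 0.08 (adjusted p = 0.0138, edgeR) under vehicle and 0.42 ± 0.08 (adjusted p = 0.0051) under NP. The vehicle call was lost without day 14 replicate 3 (adjusted p = 0.0523). Non-overlap in the higher direction was found in this 1 ligand in each comparison, beside 7.2% and 8.47% of all tested genes. The 4 blood endothelial markers had 0 calls in both comparisons, and all 4 were above 0 in each (medians 0.22 and 0.24). At an unadjusted p under 0.05, 2 of them were higher in each, beside 12.3% and 14.3% of all tested genes. Their sums were 1677 to 1998 CPM on day 14, 1909 to 2362 CPM under vehicle and 1870 to 2532 CPM under NP. Their part in the rise of Cx3cl1 was not tested.

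Cxcl16 read 113, 119, 125 and 107 CPM on day 14, 85.2, 92.1, 86.0 and 93.6 CPM under vehicle and 98.6, 91.5, 99.0 and 82.6 CPM under NP. All day 21 libraries were below day 14. The fall of Cxcl16 was 0.38 ± 0.07 (adjusted p = 0.0060, edgeR) under vehicle and 0.32 ± 0.07 (adjusted p = 0.0094) under NP, and the NP call was lost in limma on the TPM scale. Cxcl16 shares 552 of its 3021 exon bases with Zmynd15 on the opposite strand. The proteases Adam10 and Adam17 were not called in any comparison. Xcl1, a ligand of cross-presenting dendritic cells, was 0.186 to 1.12 CPM over all libraries and was not called.

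**Figure D3:**
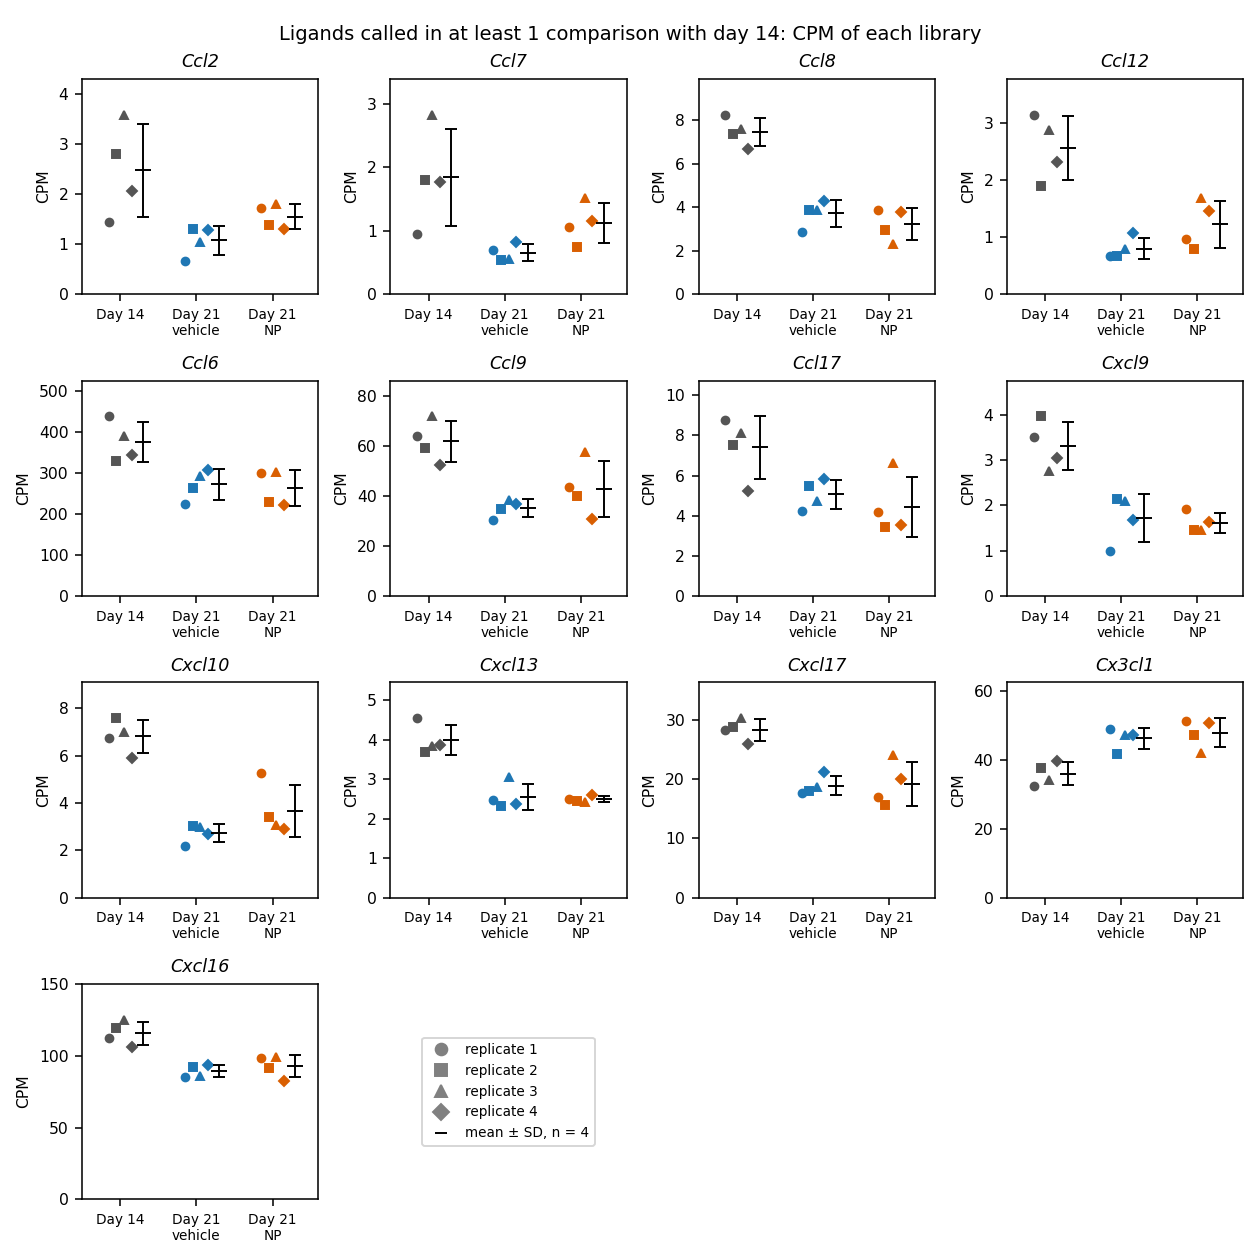
CPM of each library for the 13 ligands called in at least 1 comparison with day 14. Bars show the mean and SD of 4 libraries on axes that start at 0. Every day 21 library is below day 14 for Ccl6, Ccl8, Ccl12, Cxcl9, Cxcl10, Cxcl13, Cxcl16 and Cxcl17, and above it for Cx3cl1.

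The ligands of eosinophils and of CCR4-bearing T cells gave 1 call. Ccl17, a dendritic cell product bound by CCR4, read 8.77, 7.50, 8.12 and 5.21 CPM on day 14, 4.23, 5.48, 4.73 and 5.81 CPM under vehicle and 4.17, 3.45, 6.64 and 3.55 CPM under NP. NP replicate 3 and day 14 replicate 4 overlapped. The fall was 0.74 ± 0.21 (adjusted p = 0.0326, edgeR) under NP, and the vehicle difference was -0.55 ± 0.21 (adjusted p = 0.102). Omitting replicate 1, 2 or 3 of day 14, or replicate 1, 2 or 4 of NP, ended the NP call of Ccl17 (adjusted p = 0.0552 to 0.0959), as did limma and a fit of only the 2 groups (adjusted p = 0.0651 to 0.0692). A vehicle call appeared without day 14 replicate 4 (adjusted p = 0.0472) or NP replicate 3 (adjusted p = 0.0389). Ccl22, the other CCR4 ligand, was 14.8 to 17.4 CPM on day 14, 13 to 19.0 CPM under vehicle and 12.1 to 20.02 CPM under NP, with differences of -0.04 (95% interval -0.34 to 0.25) and 0.00 (-0.30 to 0.29). Of 8 dendritic cell markers, Fscn1 and Cacnb3, genes of mature dendritic cells, fell in both comparisons and the other 6 did not pass. Over all tested genes 6.51% and 8.56% fell.

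Ccl11 (eotaxin) lies among the monocyte attractants and was not called. It was 3.69 to 5.47 CPM on day 14, 4.46 to 5.44 CPM under vehicle and 4.03 to 5.18 CPM under NP, with differences of 0.18 (95% interval -0.11 to 0.46) and 0.00 (-0.29 to 0.29). Ccl24 had 89 counts over all libraries and intervals of -0.31 to 2.00 and -0.24 to 2.12.

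Chromosomal neighbours did not share 1 direction. On chromosome 11 (GRCm38), Ccl2, Ccl7, Ccl11, Ccl12 and Ccl8 lie in this order within 81.2 kb (chr11:82035571-82116799), and under vehicle the 4 monocyte attractants fell while Ccl11 between them read 0.18. Further along, Ccl5, Ccl9, Ccl6, Ccl3 and Ccl4 lie within 138.9 kb (chr11:83525778-83664683), and only the inner pair Ccl9 and Ccl6 were called. On chromosome 8, Ccl22, Cx3cl1 and Ccl17 lie within 66.4 kb (chr8:94745590-94812036), where Cx3cl1 rose, Ccl17 fell under NP and Ccl22 passed in neither comparison. Cxcl9, Cxcl10 and Cxcl11 lie within 44.1 kb on chromosome 5 (chr5:92321347-92365485).

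**Figure D4:**
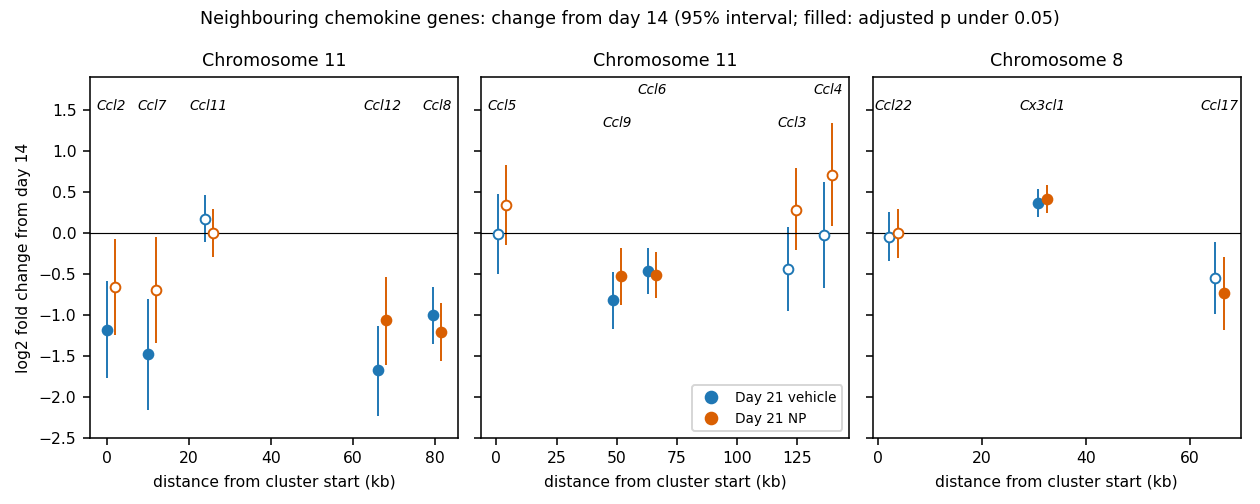
The log2 fold change from day 14 with its 95% confidence interval against distance along 3 chemokine gene clusters, for vehicle (blue) and NP (orange). Filled points passed an adjusted p of 0.05 in edgeR. Ccl11 (0.18 and 0.00) sits between ligands that fell, and Cx3cl1 (0.36 and 0.42) is above 0 between Ccl22 and Ccl17.

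The CXC ligands grouped as neutrophil attractants (Cxcl1, Cxcl2, Cxcl3, Cxcl5 and Cxcl15) gave 0 calls of 5 against day 14. At an unadjusted p under 0.05, at which 16 of 31 ligands stood under vehicle (14 lower) beside 27.3% of all tested genes (15% lower), Cxcl1 was lower (-0.91, adjusted p = 0.0781) and Cxcl15 higher (0.36, adjusted p = 0.0586) under vehicle, and Cxcl15 higher (0.30, adjusted p = 0.0878) under NP. DESeq2 called Cxcl1 (-0.91, adjusted p = 0.0449) and Cxcl15 (0.37, adjusted p = 0.0177) under vehicle. Cxcl15 read 1161, 1135, 1209 and 1393 CPM on day 14, 1494, 1781, 1270 and 1748 CPM under vehicle and 1622, 1664, 1483 and 1279 CPM under NP. Day 14 replicate 4 reached into the range of both day 21 groups. Of 7 alveolar type 2 markers, Sftpa1 and Slc34a2 rose in both comparisons and the others did not pass. Over all tested genes 3.79% and 6.16% rose. Cxcl5 had 131 counts over all libraries and its interval ran from -1.79 to 1.16 under vehicle.

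Between NP and vehicle on day 21, 0 of 31 ligands were called in edgeR, and 0% of all tested genes were. DESeq2 called 0 ligands, as did limma on both TPM scales. At an unadjusted p under 0.05, 7 ligands were higher under NP and 0 were lower, beside 4.25% of all tested genes (2.41% higher and 1.85% lower). These 7 were Cxcl2, Ccl3, Cxcl3, Ccl4, Ccl7, Cxcl10 and Ccl12. In all, 4 ligands (Ccl2, Ccl3, Ccl4 and Cxcl2) had all NP libraries above all vehicle libraries in CPM, as did 1.8% of all tested genes. For Ccl2 the margin was small, with NP replicate 4 at 1.304 CPM and vehicle replicate 2 at 1.296 CPM. In TPM these 2 libraries read 3.54 and 3.68, so the groups of Ccl2 overlapped. The log2 difference was above 0 in 22 of 31 ligands, with a median of 0.07 beside 0.0020 over all genes. None of these differences passed after adjustment over all genes, and the ligands named here were picked after their values were seen.

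Cxcl2, a CXCR2 ligand made early by macrophages, read 0.493, 0.362, 0.0825 and 0.395 CPM under vehicle and 1.31, 0.706, 1.29 and 0.797 CPM under NP. The counts behind these values were 3 to 14 per vehicle library and 17 to 38 per NP library. The difference was 1.65 ± 0.44 (95% interval 0.70 to 2.61, unadjusted p = 0.0022, adjusted p = 0.894, edgeR), and the day 14 range of 0.253 to 0.980 CPM overlapped with both. Cxcl3, its neighbour, read 0.211, 0.542, 0.247 and 0.334 CPM under vehicle and 0.585, 0.623, 0.820 and 0.507 CPM under NP, with a difference of 0.91 ± 0.33 (adjusted p = 0.998). Vehicle replicate 2 overlapped with NP replicate 4.

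Ccl3 and Ccl4, products of activated macrophages and lymphocytes, were alike in size of difference. Ccl3 read 0.811, 0.814, 1.29 and 1.09 CPM under vehicle and 1.58, 1.37, 2.34 and 1.38 CPM under NP, with a difference of 0.72 ± 0.24 (adjusted p = 0.948, edgeR). Ccl4 read 0.599, 0.512, 0.550 and 0.547 CPM under vehicle and 0.826, 1.04, 0.820 and 0.978 CPM under NP, from 17 to 27 counts per library, with a difference of 0.73 ± 0.29 (adjusted p = 0.999). In both genes the lowest NP library was above the highest vehicle library, and neither differed from day 14 past the threshold in either group. On day 14 Ccl4 and Cxcl2 were highest in replicate 2 (0.980 CPM each), the library with the highest immediate early genes, and without it Ccl4 was higher under NP than on day 14 by 1.10 (adjusted p = 0.0124).

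Among the monocyte attractants the NP difference from vehicle was 0.78 ± 0.33 for Ccl7, 0.61 ± 0.27 for Ccl12 and 0.52 ± 0.29 for Ccl2 (adjusted p = 0.999 each, edgeR), and -0.20 ± 0.17 for Ccl8 (95% interval -0.56 to 0.16). Cxcl10 was higher by 0.43 ± 0.18 (adjusted p = 0.999) with all libraries and by 0.20 without NP replicate 1, the library with the high interferon target genes. Without NP replicate 3, the library with the high neutrophil markers, the differences were 0.61 for Ccl7, 0.42 for Ccl12, 0.52 for Ccl3, 0.76 for Cxcl3, 1.52 for Cxcl2 and 0.77 for Ccl4, all above 0 as with it. Neutrophil markers were higher at an unadjusted p under 0.05 in 7 of 8 genes between NP and vehicle, beside 2.41% of all tested genes. Of the 8, 0 were called and 0 were without overlap. Their sum was 1161 CPM in NP replicate 3 and 104 to 108 CPM in the other NP libraries, which lay inside the vehicle range of 60.0 to 140 CPM. Other lists had 0 calls as well. The immediate early genes were above 0 in 10 of 10 (median 0.47, beside 0.0020 over all genes). Of the 10, 0 were higher at an unadjusted p under 0.05, beside 2.41% of all tested genes, and 2 were without overlap, beside 1.8%. The NF-kB feedback genes were above 0 in 8 of 8, with 2 higher at an unadjusted p under 0.05, beside 2.41% of all tested genes. Of 5 classical monocyte markers, 3 were higher at that p, beside the same 2.41%. Ly6c2 among them was without overlap, as were 1.8% of all tested genes. Their part in the ligand differences was not tested. The remaining called ligands (Ccl6, Cxcl9, Cxcl13, Cxcl16, Cxcl17 and Cx3cl1) differed between NP and vehicle by -0.10 to 0.06. Ccl17 differed by -0.19 ± 0.21 and Ccl9 by 0.29 ± 0.16, and without NP replicate 3 these were -0.44 and 0.12.

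**Figure D5:**
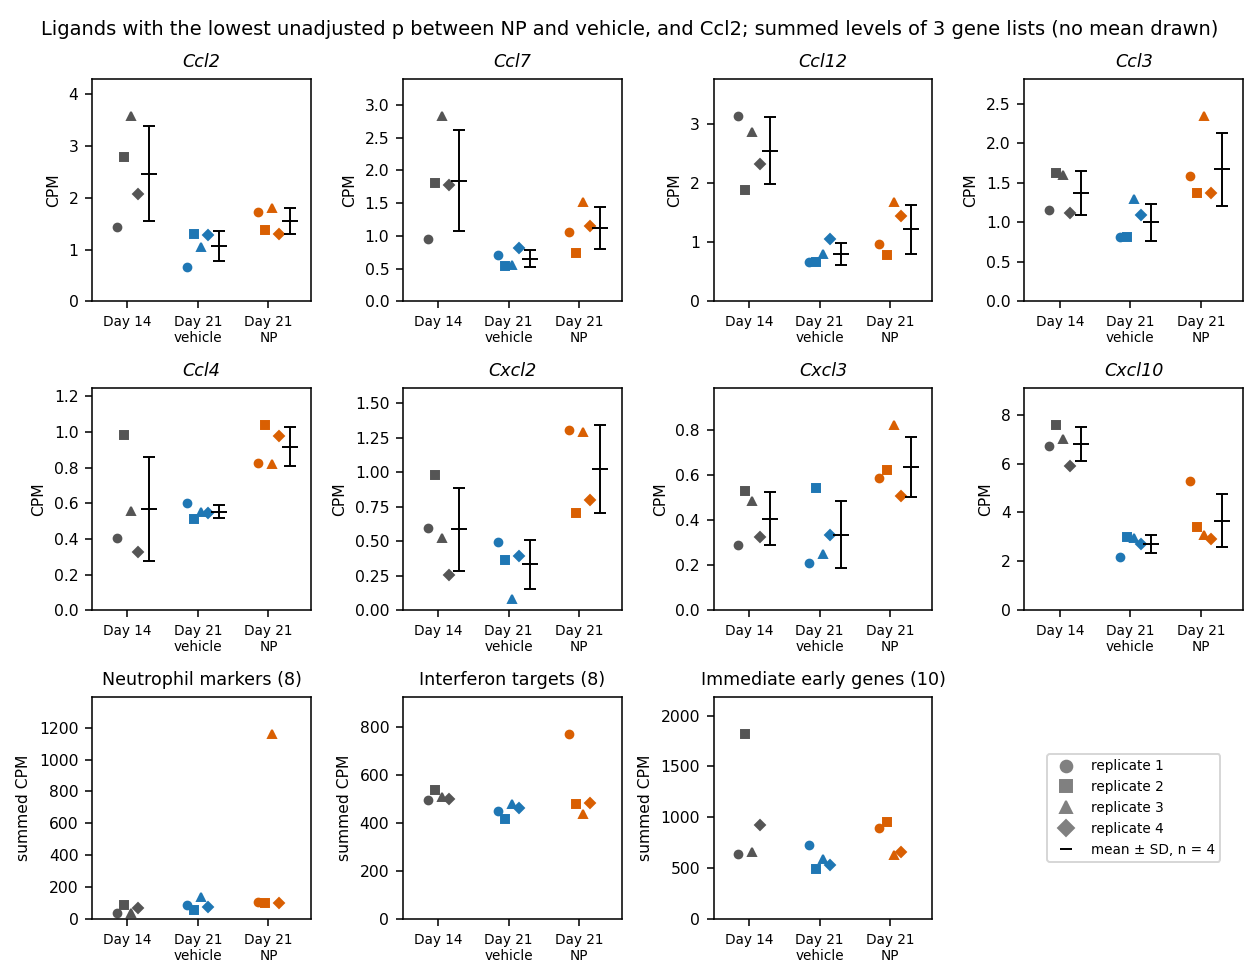
CPM of each library for the 7 ligands with an unadjusted p under 0.05 between NP and vehicle and for Ccl2, with summed CPM of 8 neutrophil markers, 8 interferon target genes and 10 immediate early genes in the bottom row. Bars show the mean and SD of 4 libraries in the ligand panels. The neutrophil sum of NP replicate 3 is 1161 CPM, and the interferon sum of NP replicate 1 is 772 CPM.

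Of 26 genes that receive or process chemokines, 18 were receptors, 5 atypical or scavenging receptors and 3 proteases. Under vehicle 2 rose and 0 fell, beside 10.3% of all tested genes called (3.79% higher). Under NP 2 rose and 2 fell, Ccr8 among the latter, beside 14.7% of all tested genes called (6.16% higher and 8.56% lower). Ccrl2, an atypical receptor that presents chemerin, read 26.2, 28.3, 26.7 and 33.1 CPM on day 14, 35.0, 32.0, 35.7 and 43.5 CPM under vehicle and 34.6, 40.4, 39.5 and 39.0 CPM under NP. It rose by 0.36 ± 0.10 (adjusted p = 0.0318, edgeR) and by 0.43 ± 0.10 (adjusted p = 0.0112). Dpp4, a peptidase that trims several chemokines, rose by 0.29 ± 0.07 (adjusted p = 0.0276) and by 0.31 ± 0.07 (adjusted p = 0.0163). Omitting any of 5 libraries (replicates 1 and 3 of day 14; replicates 1, 3 and 4 of vehicle) ended both vehicle calls (adjusted p = 0.0555 to 0.1), and the NP call of Dpp4 without NP replicate 2 (adjusted p = 0.0515).

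Ccr8, the receptor of Ccl8 on subsets of T cells, read 0.862, 0.641, 0.410 and 0.616 CPM on day 14, 0.458, 0.452, 0.550 and 0.456 CPM under vehicle and 0.138, 0.374, 0.234 and 0.109 CPM under NP. All NP libraries lay below all libraries of the other groups, with 3 to 9 counts per NP library. Ccr8 fell by 1.60 ± 0.36 (adjusted p = 0.0101, edgeR) under NP, and by 0.58 on the log2(TPM + 1) scale. It differed by -0.42 (adjusted p = 0.397) under vehicle and by -1.19 ± 0.37 (adjusted p = 0.902) between NP and vehicle.

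Receptors of the other ligands that fell were not called. Ccr2, the receptor of Ccl2, Ccl7 and Ccl12, was 73.2 to 114 CPM on day 14, 91.3 to 123 CPM under vehicle and 101 to 125 CPM under NP, with differences of 0.20 (adjusted p = 0.344, edgeR) and 0.26 (adjusted p = 0.2). Cxcr3 was 2.66 to 4.36 CPM over all libraries and Ccr7 9.10 to 22.5 CPM. Cxcr2, carried by neutrophils, was 4.55 to 6.22 CPM on day 14, 5.15 to 13.4 CPM under vehicle, 63.8 CPM in NP replicate 3 and 6.01 to 8.09 CPM in the other NP libraries. Ackr1, the venular receptor that takes up inflammatory chemokines, was 2.28 to 4.29 CPM on day 14, 1.22 to 2.14 CPM under vehicle and 1.08 to 4.53 CPM under NP, and its vehicle difference of -1.15 had an adjusted p of 0.0979. Without NP replicate 3 that difference was -1.14 and was called (adjusted p = 0.0099).

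Cytokines that induce chemokines gave 0 calls of 9 tested in each comparison in edgeR, with 3, 3 and 0 at an unadjusted p under 0.05 in the vehicle, NP and NP against vehicle comparisons, beside 27.3%, 30.8% and 4.25% of all tested genes. Ifng, Il4, Il13 and Il17a had too few counts to be tested. Of 8 feedback genes induced by NF-kB, Nfkb2 fell by 0.30 ± 0.07 (adjusted p = 0.017) under vehicle and Birc3 rose by 0.25 ± 0.05 (adjusted p = 0.0098) under NP. The other feedback genes passed in neither comparison, where 10.3% and 14.7% of all tested genes were called.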

How the data were processed

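Whole-lung polyA RNA of 12 mice was sequenced with paired-end reads, as the labels' protocols state. Alignment to GRCm38 (STAR 2.7.8a) and gene quantification (RSEM 1.3.3) are tools listed in the submitters' processing notes, beside cutadapt 4.8 for trimming. Neither strand setting nor annotation release is given in the sources used here. The authors deposited expected counts per gene as whole numbers, and TPM per gene beside them, per the file headers.

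Expected counts were tested with edgeR 4.0.16 in R 4.3.3 (filterByExpr with minimum count 10 and total 15, TMM, robust quasi-likelihood fit of all 12 libraries with a group term, two-sided). Benjamini-Hochberg adjustment ran over 17909 genes, with a threshold of 0.05. CPM are counts over TMM-scaled library sizes. DESeq2 1.42.0 and limma 3.58.1 on log2(TPM + 1) and log2(TPM + 0.1), with genes of mean TPM of at least 0.1, were alternatives, with other scalings, no filter, a replicate block, 2-group fits and each library left out. Scripts were tested on simulated data. Coordinates are from GENCODE M21 and promoters from RefSeq.

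The ligands and gene lists were chosen with earlier results of these data known. Every ligand called in a comparison and the 6 most abundant are given by library. Others are given by range and counts. Replicate libraries of a group differed by more than sampling noise (chi-square per degree of freedom 8.17 to 33.7 over 18 pairs). Some single genes of the lists are not reported here.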

Additional observations from a re-analysis of the deposited data

Results flagged for a closer look

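In each ligand and group, the gap between the highest or lowest of the 4 libraries and its nearest neighbour was set against the range of the group. The ratio was above Dixon's critical value at the 95% level in 3 of 93 groups. Chance alone flags about 1 in 20 such groups. Ccl21a in NP replicate 3 was 177 CPM, against 88.7 to 98.0 CPM in the other NP libraries. Cxcl1 in vehicle replicate 3 was 0.632 CPM, against 1.08 to 1.13 CPM in the other vehicle libraries. Ccl24 in day 14 replicate 1 was 0.311 CPM, against 0.0724 to 0.113 CPM in the other day 14 libraries, from at most 13 counts per library.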

How the results depend on the processing

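Leaving out 1 library at a time gave 9 to 14 called ligands under vehicle, 8 to 12 under NP and 0 between NP and vehicle. Of the calls, 9 of 12 under vehicle and 8 of 11 under NP were kept in every such fit. limma on either TPM scale called 7 ligands under NP, losing Ccl9, Ccl17, Cxcl9 and Cxcl16, and 10 under vehicle, losing Ccl6 and Cxcl9. With no filter, 9 were called under NP (Ccl6 and Ccl9 lost), and a fit of only the 2 groups also called 9 (Ccl9 and Ccl17 lost). The receptor and processing genes were less stable: 0 to 6 called under vehicle and 2 to 8 under NP when a library was left out. The vehicle count was 0 without day 14 replicate 1 or 3 or vehicle replicate 1 or 3, 1 without vehicle replicate 4, 4 without NP replicate 4 and 6 without day 14 replicate 2 or NP replicate 3. The NP count was 7 without day 14 replicate 2, 8 without NP replicate 3 and 2 without NP replicate 2. DESeq2 called 6 and 7 of them, and a fit of only the 2 groups called 5 under vehicle. The cause of these differences was not tested.

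Replicate numbers did not pair the samples (same-number correlations of -0.074 to 0.148, with 2 of 12 over 0.1, and 6 of 24 best matches with the own number). With the replicate number as a block, 12 ligands were called under vehicle, 11 under NP and 0 between treatments, and 4 receptor and processing genes under vehicle (2 without the block) and 4 under NP.

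Some differences near 0 changed sign. Against day 14, Cxcl12 was -0.14 (vehicle) and -0.07 (NP) on both TPM scales. Between NP and vehicle, leaving out 1 library at a time gave -0.13 to 0.027 for Ccl6, -0.28 to 0.019 for Cxcl9, -0.077 to 0.064 for Cxcl13 and -0.11 to 0.10 for Cxcl17. Cxcl9 was 0.052 and 0.096 on log2(TPM + 1) and log2(TPM + 0.1), and Cxcl17 was -0.00152 with upper-quartile factors.

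Over all genes, upper-quartile factors gave 888 higher and 934 lower calls under vehicle, beside 679 and 1166 with TMM. Low counts limit Ccl4, Ccl24, Cxcl2, Cxcl3, Cxcl5, Xcl1 and the receptor Ccr8, which averaged under 20 counts per library.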

Other observations

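The platelet chemokines are outside the ligand list, and their values were looked at after the ligands. Ppbp, the precursor of a CXCR2-binding platelet chemokine, lies in the same chromosome 5 cluster as the CXCR2 ligands. It read 3.69, 5.88, 3.73 and 6.92 CPM on day 14, 8.32, 4.07, 10.3 and 6.29 CPM under vehicle and 9.64, 14.4, 18.5 and 14.6 CPM under NP. All NP libraries were above day 14, and 1 of 4 overlapped with vehicle. Ppbp rose by 1.51 ± 0.30 (adjusted p = 0.0077, edgeR) between day 14 and NP, and differed by 0.53 (adjusted p = 0.279) under vehicle and by 0.98 ± 0.29 (adjusted p = 0.902) between NP and vehicle. Pf4, the other platelet chemokine listed, was not called (0.23, adjusted p = 0.259, under NP). The platelet genes Itga2b (0.72, adjusted p = 0.0117) and Gp9 (1.44, adjusted p = 0.0165) rose under NP as well.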
